A study of Mus musculus with 4 samples.

Results

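The places described here are short stretches of the mouse autosomes that gave many Ldb1 tags in chromatin immunoprecipitation of bone marrow progenitor cells, while the tags of Tal1, Gata2 and control IgG stayed low. Each autosome (chromosomes 1 to 19) was divided into bins of 500 bp, repeated tags at a position and strand were counted a single time, and bins were kept with at least 8 Ldb1 tags, at most 6 Tal1 tags, at most 4 Gata2 tags and at most 3 IgG tags. This left 529 of 4299458 autosomal bins with a tag in any library, or 0.0123%. Joining adjacent bins gave 527 regions, of which 525 were 500 bp long and 2 were 1000 bp long. Bins with at least 8 Ldb1 and at most 3 IgG tags numbered 11924 (0.277% of tagged bins), so the bins low in both partners made up 4.44% of them (95% exact interval 4.07 to 4.82). Of the other Ldb1 bins, 8602 were above both limits, 2532 were above the Tal1 limit alone and 261 were above the Gata2 limit alone. Without regard to Ldb1, 2.52% of tagged bins were above the Tal1 limit and 3.12% above the Gata2 limit; of the 4043191 bins within the Tal1, Gata2 and IgG limits, 0.0131% had 8 or more Ldb1 tags. The regions were chosen by these tag numbers, which are therefore given as a description with no test.

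Ldb1 (LIM domain binding protein 1) has no DNA-binding domain of its own. It binds LIM domain proteins and itself, and so joins DNA-bound factors into larger complexes and can bring distant elements together. In blood cells the best known of these complexes links Ldb1, through the LIM-only protein Lmo2, to Tal1 with its E-protein partner and to a GATA factor. Tal1 (also called Scl) is a basic helix-loop-helix factor that binds E-boxes, and Gata2 is the zinc finger GATA factor of stem and early progenitor cells. Ldb1 also works with LIM-homeodomain proteins in other tissues.

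The 4 libraries, 1 each for the antibodies against Ldb1, Scl/Tal1, Gata2 and non-specific IgG, came from freshly isolated mouse marrow from which lineage-positive (Lin+) cells had been removed with magnetic beads. The remaining Lin- cells are a mixture enriched for progenitors; no strain, age or treatment of the animals is given, and the labels describe the cells of all 4 libraries alike. The study asked what Ldb1 does in the upkeep of haematopoietic stem cells. Counted once per position, the autosomes held 3866477 Ldb1, 8701045 Tal1, 5785973 Gata2 and 3401045 IgG tags. At these depths, 8 Ldb1 tags correspond to 18 Tal1, 11.97 Gata2 and 7.04 IgG tags. With 1 library per antibody there is no replicate and no test below: intervals are 95% exact (binomial for shares, Poisson for tag numbers) and cover counting error only. Positions are in the build mm8. Genes, exons and sequence are not assigned to them, since no genome or annotation of that build was used here.

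The regions were low in Ldb1 among the Ldb1 bins and sat close to the limit of the rule. Ldb1 had a lowest count of 8 tags, a median of 8 and a highest of 17 per kept bin. In 366 bins the count was exactly 8, and 97 bins had 9. Only 65 regions had 10 or more tags in their best bin, and 9 had 12 or more. Just outside the Ldb1 limit, 1301 bins with 7 tags met the other limits. The share of low bins among all Ldb1 bins was 13.9% at 8 Ldb1 tags (12.6 to 15.3), 2.87% at 10 tags (2.04 to 3.91) and 0.458% at 12 to 14 tags (0.198 to 0.900). Of 2045 bins with 20 or more Ldb1 tags and at most 3 IgG tags, 0 were low in both partners (95% exact interval 0 to 0.180%). All 2045 of these bins were thus above at least 1 partner limit.

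**Figure D1:**
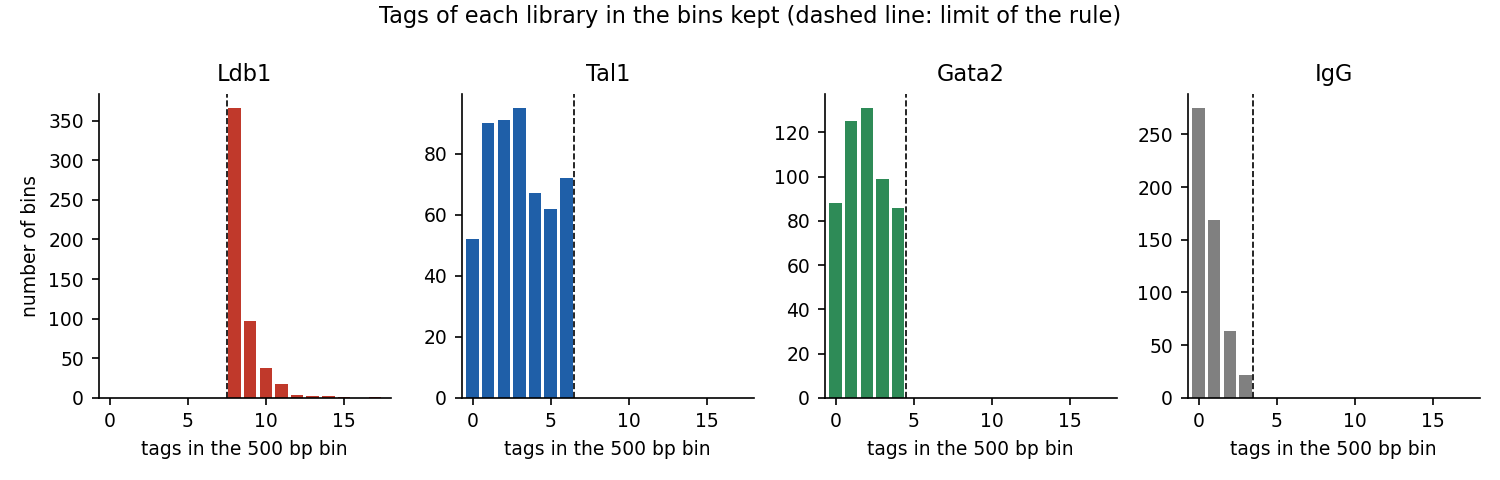
Number of kept bins (y axis) by tags in the 500 bp bin (x axis) for each library, with the limit of the rule as a dashed line. Ldb1 piles up at 8 tags, 366 of 529 bins, while Tal1 spreads over the whole range from 0 to 6.

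Tal1, Gata2 and IgG tags in the kept bins were limited by the rule. Tal1 ranged from 0 to 6 tags with a median of 3, and 52 bins had none. Gata2 ranged from 0 to 4 with a median of 2, and 88 bins had none. IgG ranged from 0 to 3 with a median of 0, and 275 bins had none. The mean was 2.96 tags for Tal1, 1.94 for Gata2 and 0.682 for IgG, against 2.02, 1.35 and 0.791 over all tagged autosomal bins. Low in Tal1 and Gata2 therefore did not mean empty: both means lay above the genome mean, at 1.46 times for Tal1 (1.39 to 1.54) and 1.44 times for Gata2 (1.36 to 1.54), while IgG lay at 0.863 times (0.776 to 0.956). This was uneven: mean Tal1 was 3.95 tags in regions touching a bin above a partner limit. It was 1.92 (1.61 to 2.26) in those with no such bin within 10 kb. Mean Gata2 was 2.43 and 1.53 in these. At the upper limits, 72 bins had 6 Tal1 tags and 69 further bins had 7 with the other limits met. In the same way 86 bins had 4 Gata2 tags and 65 had 5, and 22 bins had 3 IgG tags and 11 had 4.

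Within the limits, bins with more Ldb1 tags also held more Tal1 and Gata2 tags. Mean Tal1 was 1.66 tags per bin in the 1252752 bins with 1 Ldb1 tag and 2.50 (2.41 to 2.59) in the 1301 bins with 7. It reached 2.86 (2.71 to 3.02) in the 463 bins with 8 or 9 Ldb1 tags and 3.68 (3.23 to 4.18) in the 66 bins with 10 or more. Mean Gata2 went from 1.13 to 1.87 (1.75 to 2.0) and 2.47 (2.11 to 2.88) over the same steps. IgG did not follow, with 0.737 tags at 1 Ldb1 tag, 0.674 (0.601 to 0.753) at 8 or 9 and 0.742 (0.549 to 0.982) at 10 or more. When bins low in Ldb1, Tal1 and Gata2 were ordered by IgG tags instead, mean Tal1 went from 1.65 at 1 IgG tag to 2.26 (2.12 to 2.40) at 7 and 2.02 (1.77 to 2.29) at 8 or more. Mean Gata2 went from 1.12 to 1.59 (1.48 to 1.71) and 1.60 (1.38 to 1.85) over those steps. A part of the rise thus also appeared with the control. The last steps of the 2 series are unlike, at 10 or more Ldb1 and 8 or more IgG tags. At 8 or 9 Ldb1 tags, mean Tal1 lay above both of the last IgG steps. The Gata2 interval there overlapped that at 8 or more IgG tags but not that at 7. All of these counts entered the rule, so they are a description only.

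**Figure D2:**
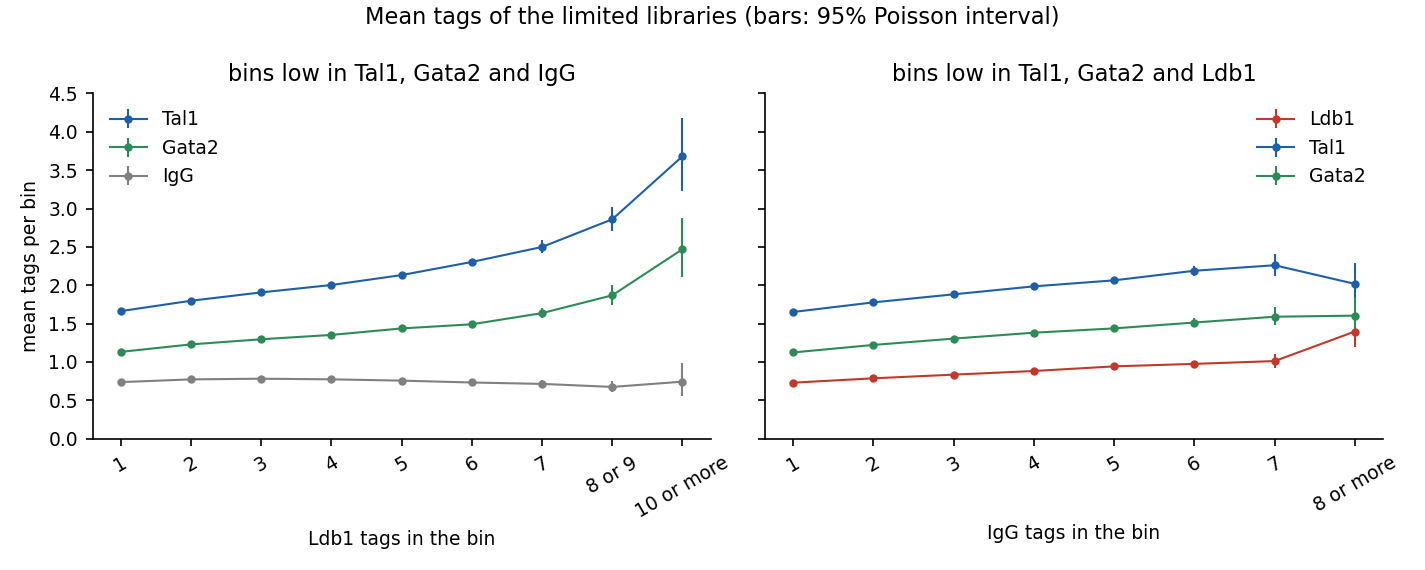
Mean tags per bin (y axis) of the libraries held under a limit, by Ldb1 tags in the bin (left) or, as the control, by IgG tags (right); bars are 95% Poisson intervals. Tal1 ends at 3.68 tags with 10 or more Ldb1 tags and at 2.02 with 8 or more IgG tags.

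The control put in the place of Ldb1 showed how many such bins a library without a specific antibody gave. With IgG at 8 or more tags and Ldb1 at 3 or fewer, 116 bins met the limits. At 7 or more IgG tags, the number nearest to the depth-matched minimum of 7.04, there were 569 bins in 567 regions, which is not fewer than the 529 of Ldb1. With Ldb1 thinned to the IgG tag number, 233 Ldb1 regions and 125 IgG bins met the limits with a minimum of 8. Counting only tags without a mismatch left 231 Ldb1 regions and 6 IgG bins, and counting every repeated tag gave 32317 Ldb1 regions and 11649 IgG bins. How the number of regions compares with IgG therefore depended on the count: it was not above IgG at 7 or more IgG tags, and it was above it in the other counts given here. Of those other counts, only the thinned one was matched for depth. The rest held both libraries to a minimum of 8 tags although IgG had fewer tags. Of autosomal tags counted once, 78.5% of Ldb1 but 64.4% of IgG had no mismatch, so depth differed further in that count. The surroundings and tag arrangement of the regions, which the rule did not use, are given next to those of the IgG regions (7 or more tags).

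Many of the regions lay beside places where Tal1 or Gata2 was above its limit. A bin with over 6 Tal1 tags touched 151 of the 527 regions, or 28.7% (24.8 to 32.7), against 4.56% of all tagged bins and 3.53% (2.17 to 5.40) of the IgG regions. Within 1 kb such a bin was found at 188 regions, or 35.7% (31.6 to 39.9), against 7.68% of all bins and 7.23% (5.24 to 9.68) of the IgG regions. A bin with over 4 Gata2 tags lay within 1 kb of 174 regions, or 33% (29.0 to 37.2), against 10.2% of all bins and 10.4% (8.02 to 13.2) of the IgG regions. Within 10 kb, 455 regions (86.3%, 83.1 to 89.2) had a bin above the Tal1 or the Gata2 limit, where 60.5% of all bins and 61.2% (57.1 to 65.2) of the IgG regions did. A bin above both limits at once lay within 10 kb of 272 regions (51.6%, 47.3 to 56.0), against 18.8% of all bins and 15.7% (12.8 to 19) of the IgG regions. The IgG regions thus had about as many such neighbours as any bin, and the Ldb1 regions had more by all 5 measures. The IgG regions were also held to at most 3 Ldb1 tags, which leaves out bins with many Ldb1 tags. What this limit does to their shares here and to their flank densities below was not tested. The share with Tal1 within 1 kb moved with the rule: it was 60% of 65 regions at 10 or more Ldb1 tags, 16.3% of 233 regions at limits of 3 Tal1 and 2 Gata2 tags, and 19.5% with repeated tags counted.

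**Figure D3:**
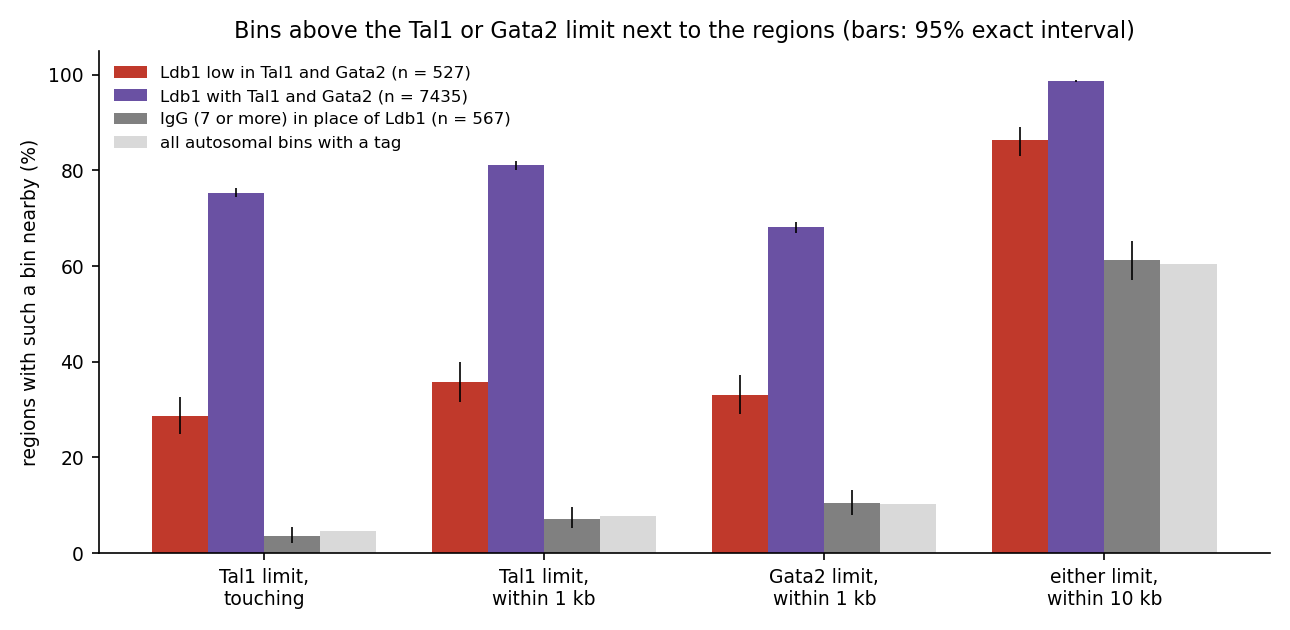
Percent of regions (y axis) with a bin above the Tal1 or Gata2 limit touching, within 1 kb or within 10 kb (x axis), with 95% exact intervals. The regions stand at 35.7% for Tal1 within 1 kb, between the Ldb1 regions above both limits (81.1%) and the IgG regions (7.23%).

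Ldb1 regions above the partner limits were more often flanked by Tal1. Among the 7435 joined regions above both limits, 81.1% (80.1 to 81.9) had a further bin above the Tal1 limit within 1 kb. This share was 71.1% (69.2 to 72.9) for the 2380 regions above the Tal1 limit alone and 69.8% (63.8 to 75.3) for the 258 regions above the Gata2 limit alone. The difference was also there at like Ldb1 tag numbers. With 8 or 9 Ldb1 tags in the best bin, 32.3% (28.0 to 36.7) of 462 low regions and 77.2% (75.4 to 78.9) of 2206 regions above both limits had such a neighbour. The rule holds Tal1 down inside the regions but sets no limit on the bins around them. Neighbouring bins share sonicated fragments and local tag density, so their counts are not independent of the counts inside.

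Some regions lay beside a bin with more Ldb1 tags. In 45 of the 527 regions, or 8.54% (6.30 to 11.3), a touching bin had more Ldb1 tags than the region itself (48.7% of all tagged bins had such a neighbour). Such a neighbour was found at 12.5% (11.2 to 13.9) of regions above the Tal1 limit alone, 12% (8.31 to 16.6) of those above the Gata2 limit alone and 1.63% (1.35 to 1.94) of those above both limits. At 8 or 9 Ldb1 tags the shares were 7.14% (4.97 to 9.89) in low regions, 14.3% (12.1 to 16.8) above the Tal1 limit alone and 13.8% (9.24 to 19.6) above the Gata2 limit alone. Bins of a kind were joined first, so a higher neighbour had to be of another kind or above the IgG limit. Choosing bins for high Ldb1 also leaves fewer higher neighbours than any bin has. These shares are thus partly built in, and nothing is read from their differences. In 44 of the 45 low regions the higher bin was above the Tal1 limit. A higher bin within all limits would have been joined to the region. Each of the 45 thus had to break the Tal1, Gata2 or IgG limit, and the number is a description only. These higher neighbours had between 9 and 127 Ldb1 tags (median 14), between 2 and 180 Tal1 tags (median 29) and between 1 and 28 Gata2 tags (median 8). The extreme was the region on chromosome 1 from 173117001 to 173117500, chosen after its values were seen. It held 11 Ldb1, 6 Tal1, 4 Gata2 and 0 IgG tags, while the bin beside it held 127 Ldb1, 180 Tal1 and 27 Gata2 tags.

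The place of the bin border mattered for a part of the list. Counted again in 500 bp centred on the median of the region's own Ldb1 tags, 322 of the 527 regions (61.1%, 56.8 to 65.3) met all 4 limits. Tal1 then exceeded 6 tags in 73 regions and Gata2 exceeded 4 in 46, with 94 regions above either limit and 25 above both. Ldb1 fell under 8 tags in 122 regions, and IgG exceeded 3 in 4. The share that still met the limits was 44.4% (37.1 to 51.8) of the 187 regions that touched a bin above the Tal1 or Gata2 limit. It was 70.8% (58.9 to 81.0) of the 72 regions with no such bin within 10 kb. A part of this difference is built in by the grouping. The moved window can reach into a touching bin above a limit, and the 72 regions had none in reach.

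Tag density around the Ldb1 centre differed between these kinds of region. A central peak of Ldb1 follows from choosing the regions by Ldb1 tags and centring on them; IgG regions had 14.5 times the mean of IgG (13.9 to 15) in the same window. Over all 527 regions, Ldb1 density within 100 bp of the centre was 15.8 times the autosomal mean (15.3 to 16.4), Tal1 1.97 times (1.84 to 2.11), Gata2 1.61 times (1.47 to 1.77) and IgG 0.989 times (0.844 to 1.15). Tal1 was higher further out, at 2.43 times (2.29 to 2.58) between 300 and 400 bp. The 187 regions that touched a bin above a limit, a choice that itself raises the partner tags outside the bin, stood at 16.2 times for Ldb1 (15.3 to 17.2) and at 2.98 times for Tal1 (2.71 to 3.27) in the centre. Between 300 and 400 bp Ldb1 reached 6.88 times the mean (6.27 to 7.54) and Tal1 5.01 times (4.66 to 5.38), while Gata2 had 3.22 times (2.88 to 3.59). The 72 regions without such a bin within 10 kb, a choice that keeps partner tags low around them, had the same central Ldb1 density of 16.2 times (14.7 to 17.8). Tal1 stood at 1.08 times (0.831 to 1.38) there, Gata2 at 1.24 times (0.913 to 1.64) and IgG at 1.05 times (0.675 to 1.57), and Ldb1 itself was at 1.35 times (0.941 to 1.88) between 300 and 400 bp.

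**Figure D4:**
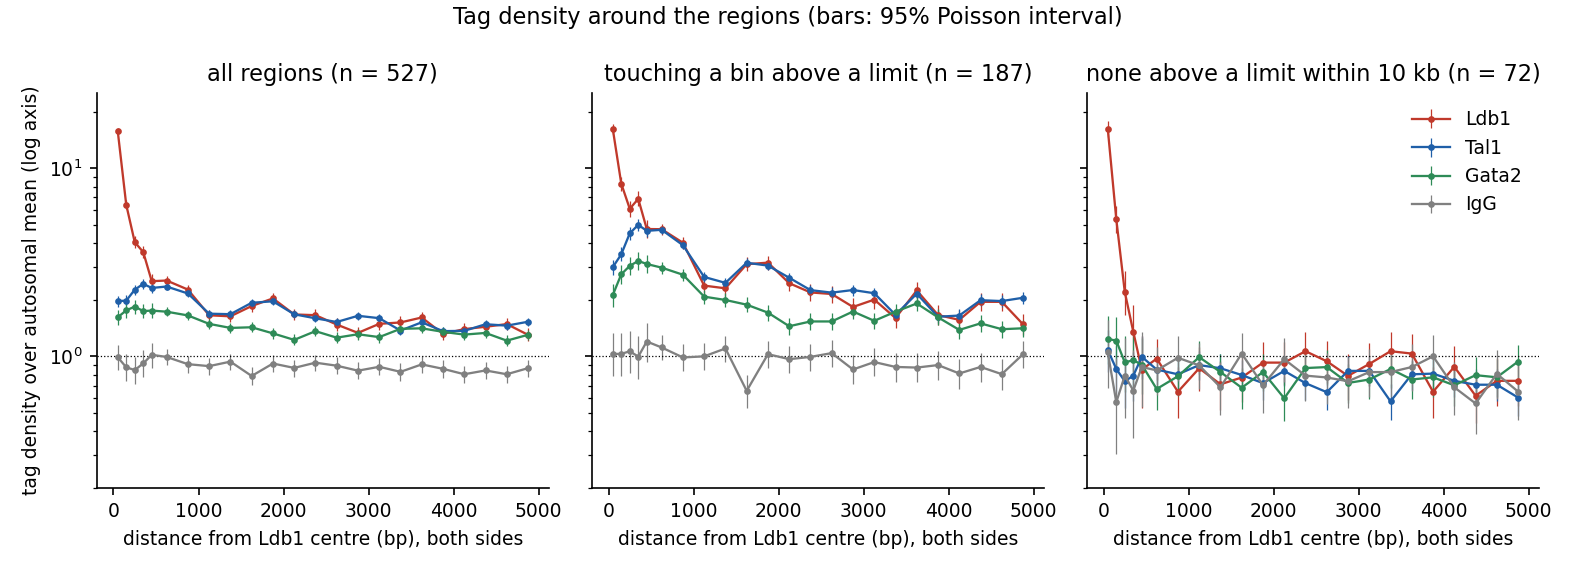
Tag density over the autosomal mean (y axis, log scale) by distance from the Ldb1 centre (x axis, both sides pooled) for all regions, those touching a bin above a limit and those with none within 10 kb; bars are 95% Poisson intervals. Ldb1 is near 16 times in the centre of all 3 panels, which the choice and centring on Ldb1 tags build in (IgG regions reach 14.5 times for IgG), and Tal1 exceeds its central value next to the centre in the middle panel.

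Outside the regions, between 0.5 and 2 kb from their edges, Ldb1, Tal1 and Gata2 were all above the genome mean. Ldb1 flank density was 1.90 times the mean (1.85 to 1.96), Tal1 1.87 times (1.84 to 1.90), Gata2 1.43 times (1.39 to 1.47) and IgG 0.879 times (0.842 to 0.916). In the flanks of the IgG regions Ldb1 and Tal1 each stood at 0.945 times the mean (0.911 to 0.980 and 0.923 to 0.969). Gata2 had 0.989 times (0.961 to 1.02) there. The excess was not shared evenly, since the median region had 13 Tal1 flank tags where the mean predicts 12.1, 9 Gata2 tags where it predicts 8.07 and 6 Ldb1 tags where it predicts 5.40. The Tal1 flank density was 3.15 times at 10 or more Ldb1 tags and 1.12 times with repeated tags counted. At 8 or 9 Ldb1 tags, the low regions had 1.75-fold Ldb1 flank density (1.70 to 1.80) and those above both limits 1.80-fold (1.78 to 1.83), so their Ldb1 intervals overlapped. Tal1 in those flanks was 1.69-fold (1.66 to 1.72) against 2.40-fold (2.38 to 2.42), and Gata2 was 1.42-fold (1.38 to 1.46) against 1.95-fold (1.93 to 1.97).

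Partner tags inside the regions fell with distance from the nearest bin above a limit. These counts entered the rule, and the distances come from the same Tal1 and Gata2 libraries, whose neighbouring bins share local tag density. The values by distance are thus a description only. Mean Tal1 was 3.95 tags (3.67 to 4.24) in the 187 touching regions, 3.08 (2.61 to 3.61) in the 49 with a gap under 1 kb, 2.47 (2.26 to 2.68) in the 219 with a gap of 1 to 10 kb and 1.92 (1.61 to 2.26) in the 72 beyond. Mean Gata2 was 2.43 (2.21 to 2.67), 1.92 (1.55 to 2.35), 1.68 (1.52 to 1.87) and 1.53 (1.26 to 1.84) in the same order. Mean Ldb1 per region was 8.72 (8.30 to 9.16) in touching regions and 8.46 (7.80 to 9.16) in the farthest. The farthest include a 1000 bp region with 18 Ldb1 tags. The floor of 8 tags set by the rule, also the median of every class, holds these means close together. Regions with 10 or more Ldb1 tags were 20.3% of the touching ones and 5.56% of the farthest. The nearest Ldb1 bin above both limits was a median of 38000 bp away, and it lay within 10 kb of 134 regions (25.4%), against 5.81% of all tagged bins. The regions themselves were scattered, with a median of 830000 bp to the next of their kind and 15 of 527 within 10 kb of one.

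The Ldb1 tags inside the regions came from both strands. No region had all its tags on 1 strand, 0 of 527 (95% exact interval 0 to 0.698%), against 3.88% (2.45 to 5.82) of the IgG regions. In 513 regions between 25 and 75% of the tags were on the forward strand. The mean 5′ end of the reverse tags lay 119.6 bp downstream of that of the forward tags in the median region (quartiles 69.4 and 163.6), where the 54 bp shift of the rule alone builds in 108 bp. The median was 124.9 bp (quartiles 91.0 and 156) in regions above both limits and 95.9 bp (23.8 and 179.9) in IgG regions. After the shift, the median positions of the strands were 43.5 bp apart in the low regions, 35.5 bp in those above both limits and 88.0 bp in the IgG regions. The spread of Ldb1 tags within a region had a median SD of 127 bp (quartiles 93.9 and 150.4). It was 109 bp (79.0 and 143) above both limits and 131 bp (103 and 154) for IgG tags, and 144 bp would be given by an even spread over 500 bp. At 8 or 9 Ldb1 tags the median SD was 125 bp in low regions and 115 bp above both limits.

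Repeated tags, which the rule did not count, occurred in 517 of the 527 regions. The deposited Ldb1 tags of the regions numbered 8651 at 4513 positions, or 1.92 per position, against 1.49 over the autosomes and 1.66 in regions above both limits. A single region on chromosome 2 from 166133001 to 166133500, chosen after its values were seen, held 1510 of them at 10 positions, which is 36.2% of all repeats in the regions. Without it the ratio was 1.59, and the median region had 1.5. The IgG regions had 28.9 deposited IgG tags per position, 1.67 without the 1 region that held 113013 of their 119906 tags, and a median of 1.29. At the chromosome 2 region Tal1 had 1 deposited tag, Gata2 2 and IgG 2. Of all Ldb1 positions in the regions, 81.7% (80.5 to 82.8) carried a tag without a mismatch, against 78.5% over the autosomes and 83.8% (83.6 to 84.0) in regions above both limits. In 15 regions fewer than 50% of the positions did. Only 194 regions (36.8%) had 8 or more positions without a mismatch.

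The 10 regions with most Ldb1 tags in a bin were named, with ties settled by the fewest Tal1, Gata2 and IgG tags together and then by position; the tenth place was settled so among the regions with 11 tags. The top one (chromosome 16, 6011001 to 6012000) was 1 of the 2 joined regions. It held 32 Ldb1 tags (19 forward and 13 reverse), with 17 in the better bin, and 1 Tal1, 0 Gata2 and 1 IgG tag. Over 2 kb around its centre there were 35 Ldb1, 2 Tal1, 0 Gata2 and 5 IgG tags, where the autosomal means predict 3.60, 8.10, 5.38 and 3.16. This window includes the 1000 bp chosen for high Ldb1 and low Tal1, Gata2 and IgG tags. Nothing is therefore read from these differences. A count of 0 allows up to 3 tags by a 1-sided 95% limit, which is not the interval used elsewhere. It had 56 deposited tags, 29 of 32 positions without a mismatch and a spread of 156 bp. The value given above for an even spread over 500 bp does not apply to this region of 1000 bp. The nearest bin above the Gata2 limit was 8500 bp away and that above the Tal1 limit 235000 bp away. Both of its bins held at least 8 Ldb1 tags with both partners low, but the Ldb1 tags gathered near the centre. The densest 100 bp held 46.9% of them. No other named region had as many Ldb1 tags.

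**Figure D5:**
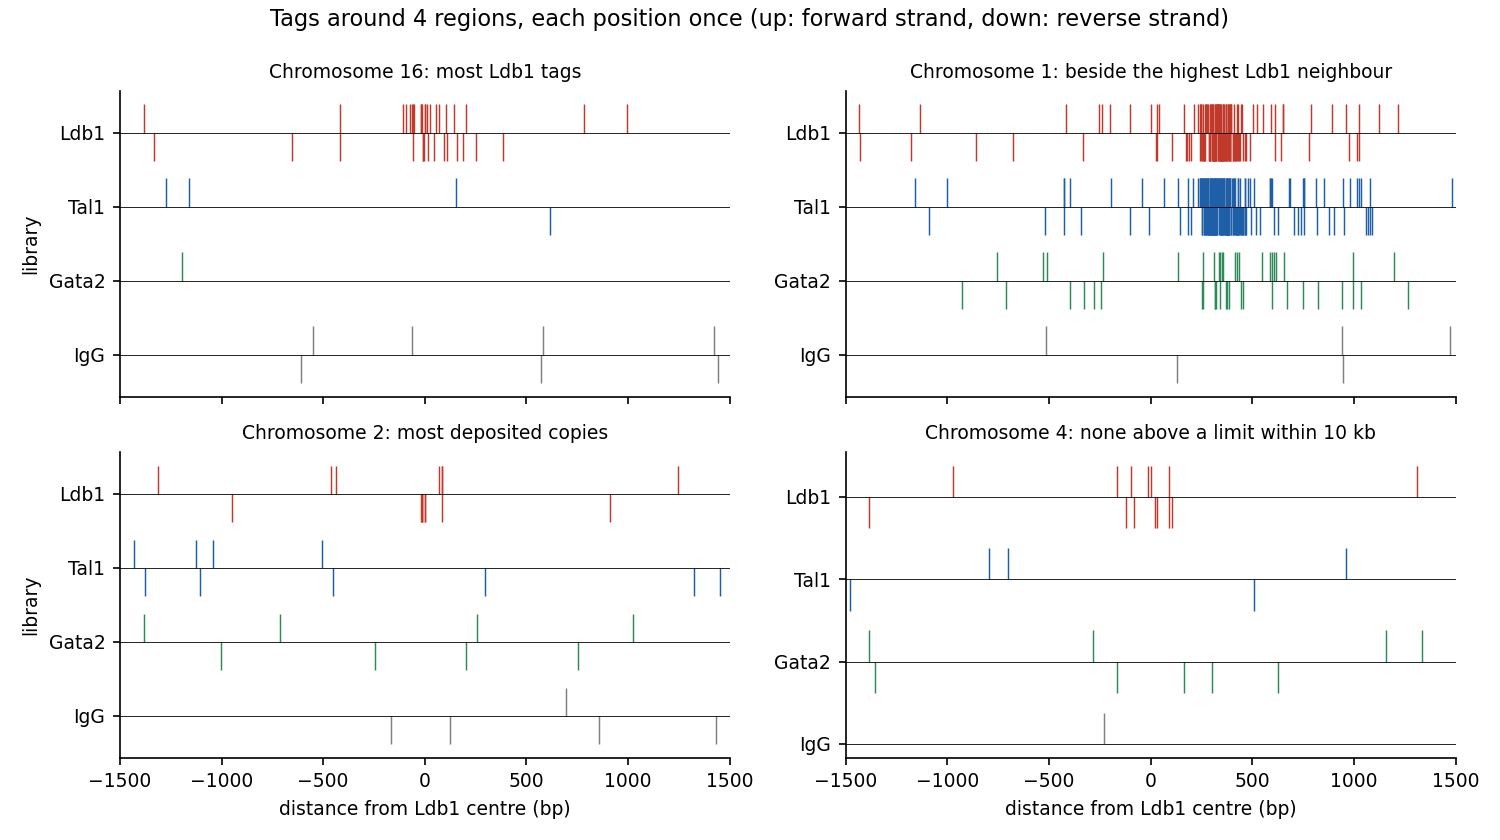
Tags of the 4 libraries (rows, each position once) by distance from the Ldb1 centre in bp (x axis), with forward tags upwards and reverse tags downwards, for 4 regions. The chromosome 16 region has 32 Ldb1 tags and 1 Tal1 tag inside it and the chromosome 4 region 11 and 0, the chromosome 2 region has 10 Ldb1 positions close together, and the chromosome 1 region lies at the edge of a dense Ldb1 and Tal1 site.

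Of the other 9, those on chromosome 15 from 79855001 to 79855500 and on chromosome 4 from 150007501 to 150008000 also touched no bin above a limit. The first held 12 Ldb1, 3 Tal1, 1 Gata2 and 0 IgG tags. Its nearest bin above the Gata2 limit was 1500 bp away and that above the Tal1 limit 8000 bp away. The second held 11 Ldb1, 0 Tal1, 2 Gata2 and 1 IgG tag. Its nearest bin above the Tal1 limit was 92.5 kb away and that above the Gata2 limit 22000 bp away. The remaining 7 all touched a bin above a limit and had between 19 and 43 Tal1 tags over 2 kb. Chromosome 11 held 1 of them at 86360501 to 86361000 with 14 Ldb1 tags, and chromosome 10 held 1 at 59271001 to 59271500, also with 14. Those on chromosome 3 (67518001 to 67518500) and chromosome 4 (140420001 to 140420500) had 13 each. The other 3, with 12 each, were at 42898501 to 42899000 on chromosome 4 and at 89039001 to 89039500 and 89142501 to 89143000 on chromosome 15. At the chromosome 10 region the touching bin had 19 Ldb1 and 24 Tal1 tags. Counted again around their own Ldb1 centres, 4 of the 10 met all limits.

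In 6 regions Tal1, Gata2 and IgG all had 0 tags, which allows up to 3 tags each by the same 1-sided limit. The 5 named by rule held 8 or 9 Ldb1 tags. The first, on chromosome 2 from 164677501 to 164678000, had 9 Ldb1 tags (5 forward and 4 reverse) with a spread of 57.2 bp, and 3 Tal1 tags over 2 kb. The others had 8 Ldb1 tags each: chromosome 1 (92974001 to 92974500), chromosome 2 (180463001 to 180463500), chromosome 4 (154744001 to 154744500) and chromosome 5 (113340501 to 113341000). In 2 of the 5, the regions on chromosome 2 from 180463001 and on chromosome 5, a touching bin had 10 Tal1 tags. An empty bin thus did not mean an empty neighbourhood.

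The 72 regions with no bin above a limit within 10 kb (13.7%, 10.8 to 16.9) were the most isolated. Over 2 kb around their centres they had between 8 and 18 Ldb1 tags (median 10), between 1 and 16 Tal1 tags (median 7), between 0 and 11 Gata2 tags (median 5) and between 0 and 9 IgG tags (median 2). Their low partner counts follow from the choice of regions far from any bin above a limit, and nothing is read from them. Their highest Ldb1 count in a bin was 11, at the chromosome 4 region from 150007501. The next 4 named by rule had 9 or 10 Ldb1 tags in a bin: chromosome 11 (121710001 to 121710500), chromosome 6 (131182501 to 131183000), chromosome 10 (90269001 to 90269500) and chromosome 2 (20480001 to 20480500). The chromosome 11 region had 2 of its 10 Ldb1 positions without a mismatch, against 10 of 10 at the chromosome 6 region. The chromosome 2 region had 9 Ldb1 tags with a spread of 34.5 bp. The other joined region, on chromosome 8 from 64946501 to 64947500, also belonged to these 72: its 18 Ldb1 positions, 9 in each bin, carried 77 deposited tags, and 6 of the 18 had no mismatch.

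The regions followed the Ldb1 bins in their spread over the chromosomes. Chromosome 11 had most, with 51 kept bins or 229.8 per 1000000 tagged bins (171 to 302), against 123 over all autosomes. It also had most Ldb1 bins on this scale (4677, against 2773), so 4.91% (3.68 to 6.41) of its Ldb1 bins were low in both partners, near the 4.44% of all. This share was highest on chromosome 5 at 5.49% (4.01 to 7.30) and lowest on chromosome 19 at 2.48% (1.29 to 4.30). Of 19 unadjusted intervals, 17 held the common share, and those of chromosomes 9 (2.82%, 1.68 to 4.42) and 19 lay below it.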

How the data were processed

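The authors deposited aligned tags of 4 chromatin immunoprecipitation libraries, 1 line per tag, and the submitters' processing notes name build mm8. Which aligner made them is not given in the sources used here. Tables list start and end positions; the deposited score column was not used. Tags were 25 bp long, 36 bp for Tal1, which changes what can be mapped. The Ldb1 and IgG tables give mismatch classes, the others match descriptors.

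Each chromosome, 5′ end and strand was kept once, 5′ ends were moved by 54 bp along the tag, and tags were counted in 500 bp bins with Python 3.11.15, NumPy 2.4.6 and SciPy 1.17.1. Densities are relative to the mean over 2149.7 Mb of autosomal bins with a tag. Limits for neighbouring bins were over 6 Tal1 and over 4 Gata2 tags. Counting was tested on simulated libraries. Named regions were the 10 with most Ldb1 tags, the 5 with most and no other tag, the 3 longest (the third is also among the first 10) and the 5 with most Ldb1 tags and no bin above a limit within 10 kb. The rule, comparisons and alternatives were chosen with earlier results of these data known. Thinning and leaving out the region of most copies were added after seeing the data.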

Additional observations from a re-analysis of the deposited data

Results flagged for a closer look

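Chromosome X was outside the rule. There, 10 bins met the same limits, all single bins, with at most 11 Ldb1 tags, and 9 bins did so with IgG in the place of Ldb1. The Ldb1 number was thus above that of the control by 1 bin. This was not matched for depth, since chromosome X held 190283 Ldb1 and 213154 IgG tags, counted once per position. The 10 bins were 6.90% (95% exact interval 3.36 to 12.3) of the 145 bins of chromosome X with at least 8 Ldb1 and at most 3 IgG tags, against 4.44% on the autosomes.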

How the results depend on the processing

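The number of regions was within 1.5 times of 527 with each library's own shift, no shift, bins from position 250, at most 1 IgG tag and at least 5 IgG tags in the 10 kb around. The members changed more: without a shift 263 of 429 regions started with a region of the main count (49.9% of 527), and with own shifts 518 did. In this order of quantities, the values that moved were the number of regions, the percent with a bin above the Tal1 limit within 1 kb, the percent with a bin above either limit within 10 kb, the strand displacement, the Ldb1 tags per position, and the Tal1 and Gata2 flank densities. With repeated tags kept they were 32317 regions, 19.5%, 91.4%, 111 bp, 2.28 tags, 1.12 and 1.06. With at least 10 Ldb1 tags they were 65 regions, 60%, 93.8%, 3.67 tags, 3.15 and 1.51. With at least 12 they were 9 regions, 66.7%, 100%, 87.7 bp, 1.5 tags, 2.24 and 1.16. With at most 3 Tal1 and 2 Gata2 tags they were 233 regions, 16.3%, 79.0%, 2.35 tags, 1.34 and 1.21. Tags without a mismatch gave 231 regions, 2.12 tags, 2.05 and 1.48. Thinning Ldb1 to the IgG tag number gave 233 regions, 109.5 bp, 2.35 tags, 2.02 and 1.5. Bins from position 250 gave 30.5%, 1.62 and 1.36. No shift gave 51.5 bp, 1.98 tags, 1.82 and 1.47. At most 1 IgG tag gave 1.97 tags and 1.94 for Tal1. Leaving out the region of most copies gave 1.59 tags per position, and doing so within the settings gave 1.57 at 10 or more Ldb1 tags, 1.46 without mismatches, 1.59 at the lower Tal1 and Gata2 limits and 1.6 after thinning. Stricter limits keep fewer regions by construction, and without a shift the built-in displacement is gone; other causes were not tested. No paired analysis was possible because each antibody had 1 library.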
